A study of Mus musculus with 4 samples.

Results

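The arrays JAK2V617F_LSK and WT_LSK, 2 of the 4 arrays of the series, compared LSK cells that carry the JAK2V617F transgene with wild-type LSK cells, both taken 16 weeks after transplantation. LSK cells are the lineage-negative, Sca-1-positive, c-Kit-positive fraction of bone marrow, which holds the hematopoietic stem cells and multipotent progenitors. Donor cells in all groups were E14.5 fetal liver cells on the C57B6 background, here wild type (WT) or from JAK2V617F transgenic animals. Recipients in all groups had been lethally irradiated. A second pair, TET2KD (knock-down of TET2) at 10 weeks and Double mutant (both lesions) at 13 weeks, gave the JAK2V617F difference on another background and shared no array with the first pair. There were 5 mice per genotype and 1 array per genotype, and whether cells of the mice were pooled is not stated. The promoter of the transgene, its expression level and the extent of donor cells in each recipient are not given in the sources used here.

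A probe entered the comparison when it was well above background on at least 1 of the 2 arrays, which left 33672 of 55681 probes. These read 14926 of the 22623 genes named on the array. Signals are given relative to the 75th percentile of the array (127.695 intensity units in WT and 130.316 in JAK2V617F), so that a signal of 1 equals that percentile. Where a pair of signals stands in parentheses, WT comes first. A gene not well above background on 1 array takes there the higher of its own signal and that array's detection floor. The floor is a signal of 0.124 in WT and 0.108 in JAK2V617F. Such a gene is called at the floor below, and its fold is given as "at least". Where such a gene is listed as less than 2-fold apart, this holds for the floored signals only, and its difference can be larger. Genes printed with 0.124 in WT or 0.108 in JAK2V617F stand at or next to the floor there. With 1 array per genotype there is no replicate check, and "higher" and "lower" describe these arrays. Of the genes compared, 2315 were at least 2-fold higher in JAK2V617F (15.5%) and 2346 at least 2-fold lower (15.7%), with a median log2 difference of -0.01. Normexp background correction is another way to subtract the local background, run here with a constant added to every spot. The added constant by itself shrinks the folds of dim genes. With normexp background correction the counts were 903 and 922. Of 571 genes named in the text, 341 moved with it by more than the SD of a difference between repeated spots, and of the 373 named genes at least 2-fold apart 116 came under 2-fold and none took the other direction. The log2 difference of Alad, for example, was 1.59 and then 0.66, that of Alox12 1.76 and 0.62, that of Arg2 1.52 and 0.45 and that of Bcl2l1 1.68 and 0.90. The 116 genes are named at the end, and their folds depend on this choice. With probes well above background on both arrays the counts were 1439 and 1593. In the other pair 15.8% of genes were at least 2-fold higher in Double mutant than in TET2KD and 15.5% lower. Each list below is to be read against these shares.

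Only repeated spots measure the error of the arrays. Probes of a gene read different stretches, and the second pair also differs in TET2 and in weeks after transplantation. Disagreement between such probes or between the pairs is therefore not array error alone. A probe at the floor on 1 array entered only through the other array, which favours probes that agree in direction. Repeated spots of a probe had an SD of 0.157 log2 units in WT over 252 probes and of 0.157 in JAK2V617F over 261 probes, which gives a difference an SD of 0.222; this leaves out mice, sorting and amplification. Among genes with at least 2 compared probes, 4.60% of 4152 had every compared probe at least 2-fold higher, 4.07% had every such probe lower, and 7.39% had probes at least 2-fold apart in opposite directions. The last share was 1.55% of 322 genes whose probes lay within 100 bases of each other in the genome and 8.69% of 3293 genes whose probes spanned 500 bases or more. In the second pair, 26.3% of the 2043 higher genes were at least 2-fold higher again and 16.2% were lower; seen from the 2109 genes higher in that pair, 25.5% were higher in the first. Of the 1963 lower genes 25.7% were lower again and 18.1% higher, and 26.2% of the 1926 genes lower in the second pair were lower in the first. Of 13396 genes compared in both pairs 4.01% were higher in both, 3.77% lower in both and 5.13% apart in opposite directions. Across these genes, which are not independent replicates, the 2 differences had a Pearson correlation of 0.11. The shares moved with the signal of the brighter array. Among 2252 genes under 0.25, a signal close to the floor, 0.266% were at least 2-fold higher and 4.44% lower. In this range the floors leave little room for a 2-fold difference. They leave less for higher genes, because the WT floor lies above that of JAK2V617F. Between 0.25 and 1 the shares were 21.8% and 21.3% of 5264 genes, between 1 and 4 they were 18.98% and 18.4% of 4415, between 4 and 8 they were 15.3% and 14.2% of 1317, and over 8 they were 7.45% and 7.57% of 1678 genes. The lists overlap, and a gene can count in several.

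**Figure D1:**
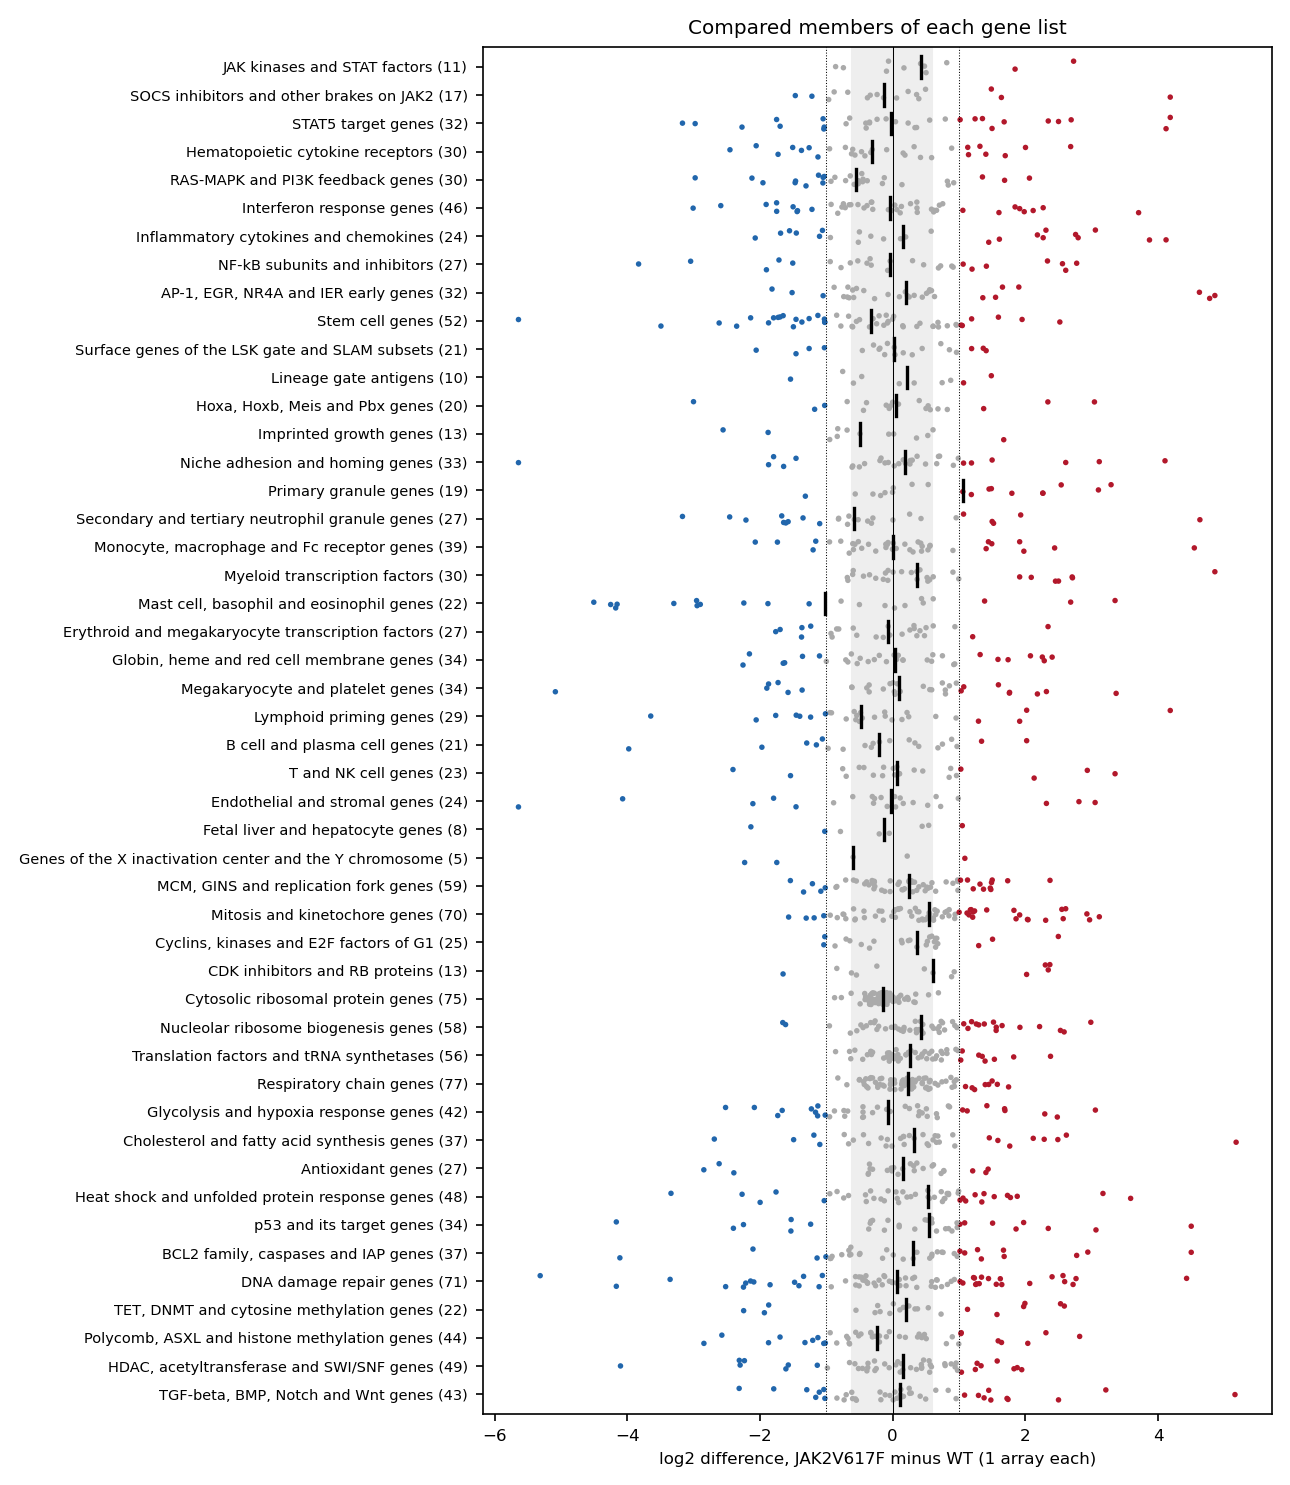
Each row is a gene list with the number of compared members in parentheses, and each point is a gene placed at its log2 difference, JAK2V617F minus WT, from 1 array each. Red points are at least 2-fold higher and blue points at least 2-fold lower, black bars are list medians, and the grey band spans the quartiles of all 14926 genes. Primary granule genes lie to the right (median 1.06), mast cell, basophil and eosinophil genes to the left (median -1.02), and ribosomal protein genes within the dotted 2-fold lines.

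JAK2 is the tyrosine kinase bound to the receptors for thrombopoietin, erythropoietin, interleukin 3, GM-CSF and other cytokines. On receptor activation it phosphorylates STAT5 and other STAT factors, which enter the nucleus and bind DNA at palindromic sites, and it also feeds the RAS-MAPK and PI3K pathways. Genes induced by STAT5 include the CIS and SOCS proteins, which in turn inhibit the receptor complex. The V617F substitution in the pseudokinase domain leaves the kinase active with little or no cytokine, and it is the common driver of myeloproliferative neoplasms, in which red cells, platelets or granulocytes are overproduced.

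Kit and Ly6a, the genes of the positive gate, were well above background on both arrays and differed in opposite directions. The Ly6a signal (Sca-1) was 4.38 in WT and 9.99 in JAK2V617F, 2.28-fold higher, and the Kit signal was 18.2 in WT and 7.61 in JAK2V617F, 2.39-fold lower. In the second pair Ly6a was 10.69 in TET2KD and 6.54 in Double mutant, and Kit was 14.1 in TET2KD and 5.17 in Double mutant; there both were lower with JAK2V617F. In these bulk samples fewer cells of a type and less RNA per cell cannot be told apart. Lineage antigens had 2 of 10 compared members higher by 2-fold or more and 1 lower (median log2 difference 0.21); the higher ones were Ptprc, the gene of CD45 and its B220 form (0.704 and 1.98), and Ly6g (0.162 and 0.340). Of the 18 listed antigens 8 could not be compared, among them the T cell gene Cd3d and the B cell gene Ms4a1, which were not above background on either array of the pair. Summed over the 10 compared antigens the signal was 22.8 in WT and 29.1 in JAK2V617F, of which Ly6c1 (11.5 and 19.2) and Itgam (7.06 and 4.69) made up most. Other compared lineage antigens, less than 2-fold apart and given with the WT signal first, were Cd3e (1.29 and 0.765), Cd4 (1.26 and 1.35), Cd5 (0.231 and 0.290), Klrb1c (0.124 and 0.228) and Adgre1 (0.149 and 0.108). Further compared lineage antigens that were at least 2-fold lower read Cd8b1 (0.313 and 0.108). Surface genes of the LSK and SLAM subsets had 3 of 21 compared members higher by 2-fold or more and 4 lower (median log2 difference 0.03), whose sign turned in 2 of 8 alternatives. Cd48, which marks progenitors rather than the stem cells at the top of the hierarchy, was 2.58-fold higher, and Cd34 (30.5 and 26.5) and Cd27 (11.2 and 8.15) were less than 2-fold apart. Other compared surface genes, less than 2-fold apart and given with the WT signal first, were Cd244a (7.54 and 7.14), Eng (1.54 and 1.26), Cd9 (9.09 and 9.32), Fcgr3 (0.336 and 0.458), Thy1 (4.45 and 8.69), Cd38 (0.124 and 0.205), Itgb3 (3.15 and 3.20), Itga6 (10.2 and 8.90), Cd93 (18.5 and 17.0) and Esam (0.638 and 0.713). The Jak2 probe (chr19:29387487-29387546, mm9) read 1.07 in WT and 1.03 in JAK2V617F; whether it also reads the transgene is not known. Tet2, which this pair does not alter, read 3.05 in WT and 2.68 in JAK2V617F over 2 probes.

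Socs2 stood apart among the brakes on JAK2, the proteins that dampen the pathway. Of that list 3 of 17 compared members were higher by 2-fold or more and 2 lower (median log2 difference -0.14); the sign of this median turned in 2 of 8 alternative processings, and the second pair had 6 of 17 higher and 1 lower, median 0.53. Socs2, a STAT5-induced inhibitor of cytokine receptors, stood at the detection floor in WT on each of the 3 probes compared, within chr10:94875066-94875527 (mm9), while the fourth probe on the array was not well above background in either sample. Its signals on these probes in JAK2V617F were 1.97, 4.23 and 1.38, and the mean was at least 18.2-fold higher. With TET2 knocked down Socs2 read 0.184 in TET2KD and 1.34 in Double mutant, 7.27-fold higher, so the arrays with JAK2V617F were above their partners in both pairs. Cish, the founding member of the family, read 2.06 in WT and 2.65 in JAK2V617F, and Socs3 read 3.11 in WT and 3.66 in JAK2V617F; these differences of 1.28-fold and 1.18-fold were small. The second pair showed Socs3 4.48-fold higher and Cish 1.57-fold. Socs4 was 3.12-fold higher and Ptprc, the CD45 phosphatase, 2.81-fold higher. Socs7 was 2.32-fold lower and Socs5 at least 2.76-fold lower. The other brakes differed less than 2-fold, among them Sh2b3, the adaptor LNK (0.209 and 0.276), Ptpn6 (6.396 and 5.06), Cbl (4.45 and 4.64) and Ptpn2 (2.24 and 2.04). Probes disagreed for Pias1 (log2 differences from -1.77 to 1.87) and Sh2b3 (-0.85 to 1.64), whose means hide opposite readings. Of the 18 listed brakes only Socs1 was not compared. Ptpn1 (1 and 0.543), Pias2 (9.37 and 5.87), Pias3 (0.380 and 0.323), Pias4 (0.545 and 0.419) and Socs6 (0.852 and 0.437) were all below their WT signal by less than 2-fold.

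**Figure D2:**
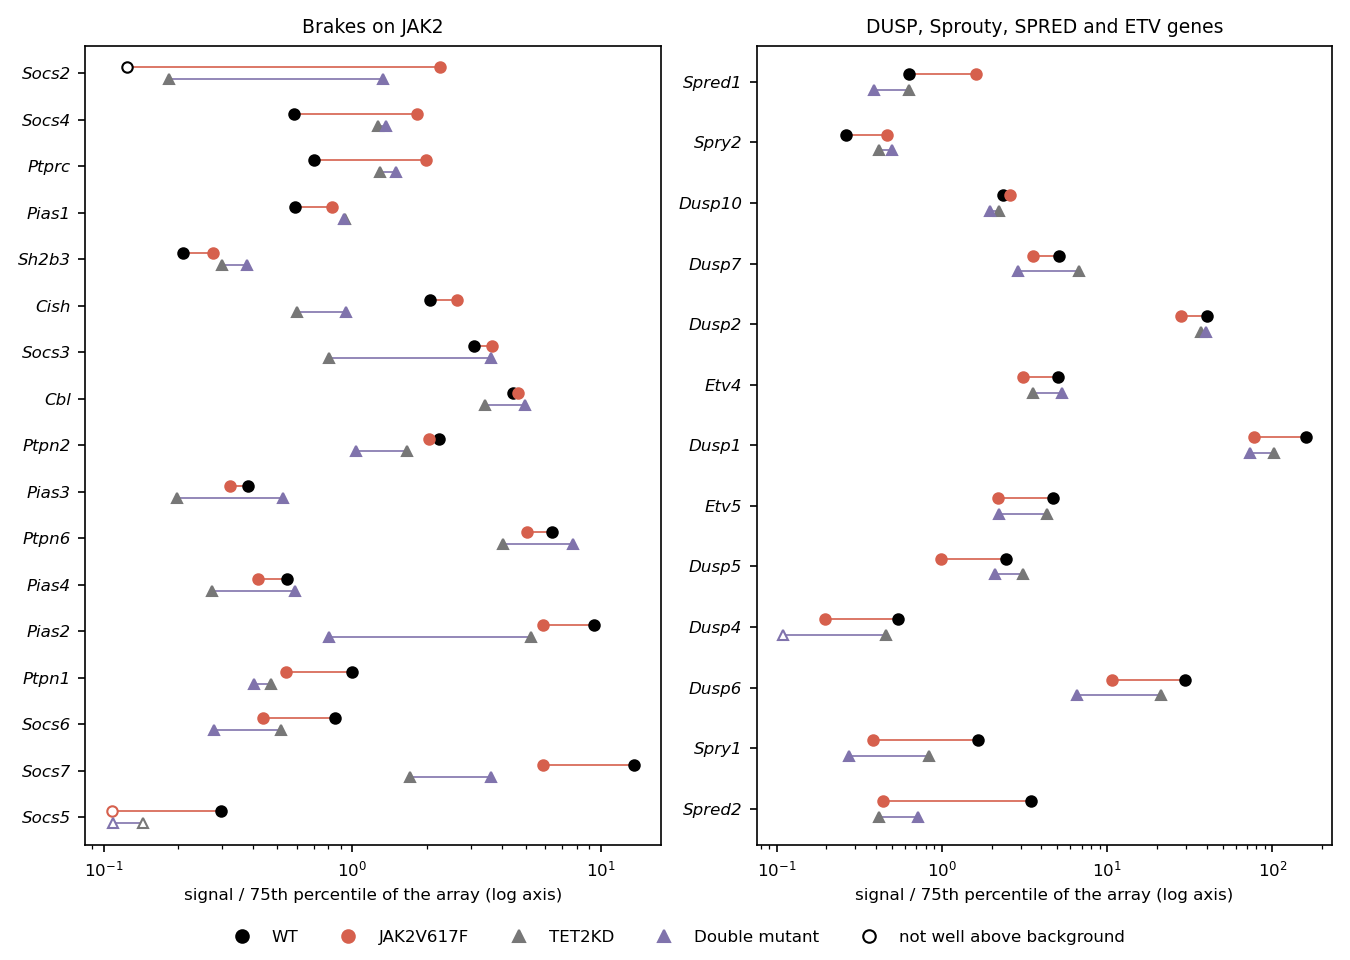
Signals of brakes on JAK2 (left) and of dual-specificity phosphatase, Sprouty, SPRED and ETV genes (right) on the 4 arrays, relative to each array's 75th percentile on a log axis; lines join WT with JAK2V617F (circles) and TET2KD with Double mutant (triangles), and open symbols are not well above background. Socs2 is right of its partner in both pairs, and Dusp6, Dusp4, Etv5 and Spry1 are left of theirs in both pairs.

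Known STAT5 targets lay on both sides. The list had 10 of 32 compared members higher by 2-fold or more and 8 lower (median log2 difference -0.03), against 15.5% and 15.7% of all genes. Besides Socs2, Osm, the cytokine oncostatin M, was at least 17.4-fold higher (signal 2.16 in JAK2V617F), Pim3, a survival kinase, was 6.46-fold higher and Id1, an inhibitor of helix-loop-helix factors, was 5.66-fold higher. Cdkn1a was 5.08-fold higher, Bcl2l1 3.21-fold higher and Cd69, an activation antigen, 2.37-fold higher. On the lower side, Lcn2 (a neutrophil granule protein) read 15.01 in WT and 1.67 in JAK2V617F and was 8.98-fold lower, Spred2 was 7.87-fold lower, Oas2 3.36-fold lower and Gfi1b 3.24-fold lower. The bright targets Pim1 (7.01 and 5.32), Myc (10.2 and 15.03), Ccnd2 (5.38 and 4.22) and Mcl1 (22.8 and 14.6) were less than 2-fold apart. Of this list, 10 of 30 were higher and 3 lower, median 0.28 in the second pair, where Osm was at least 2.68-fold and Id1 2.33-fold higher while Pim3 was 1.21-fold lower.

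STAT5 binds the letters TTCNNNGAA, a palindrome that reads alike on both strands. These letters occurred in the RefSeq promoter windows (250 bases before to 50 after the annotated start, build GRCm38.p6) of 5 of 24 STAT5 targets and 2 of 11 brakes that had a window, against 9.55% of all 27025 genes and 8.30% of 32851 windows. The 2 brakes, Cish and Socs3, are also among the 5 targets, so these are not separate counts. Of genes at least 2-fold higher 9.55% held them, and of genes at least 2-fold lower 8.69%, so the share was close to that of all compared genes (8.75%). The stretches that hold them are given because Cish and Socs3 are the textbook STAT targets among the brakes; capitals mark the motif and each runs 5' to 3' on the gene's strand.
Cish GRCm38.p6 chr9:107296613-107296687, plus strand: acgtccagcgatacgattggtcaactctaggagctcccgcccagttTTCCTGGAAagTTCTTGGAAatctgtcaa
Socs3 GRCm38.p6 chr11:117969467-117969566, minus strand: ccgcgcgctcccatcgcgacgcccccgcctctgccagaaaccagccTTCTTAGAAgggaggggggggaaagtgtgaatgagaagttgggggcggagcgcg
Bcl6 GRCm38.p6 chr16:23988917-23989016, minus strand: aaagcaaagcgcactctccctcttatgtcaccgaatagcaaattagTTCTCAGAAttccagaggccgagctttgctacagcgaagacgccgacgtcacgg
Bcl6 GRCm38.p6 chr16:23981318-23981497, minus strand: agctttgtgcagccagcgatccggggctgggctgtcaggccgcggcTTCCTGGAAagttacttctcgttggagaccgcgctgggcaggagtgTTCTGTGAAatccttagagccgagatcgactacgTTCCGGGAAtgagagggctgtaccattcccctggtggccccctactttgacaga
Gfi1b GRCm38.p6 chr2:28622062-28622161, minus strand: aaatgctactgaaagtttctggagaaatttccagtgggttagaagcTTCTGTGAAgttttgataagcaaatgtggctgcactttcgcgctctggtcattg
Serpina3g GRCm38.p6 chr12:104236068-104236167, plus strand: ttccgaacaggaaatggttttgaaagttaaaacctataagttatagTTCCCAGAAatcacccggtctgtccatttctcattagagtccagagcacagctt
In Cish the motif starts at the annotated start and again 11 bases after it, and in Socs3 it begins 154 bases before the start. Bcl6, a repressor of the BTB zinc finger family, has 1 motif 118 bases before 1 start and 3 motifs (168, 122 and 88 bases before) at its other start; its signal was 0.614 in WT and 1.06 in JAK2V617F. Gfi1b, a transcriptional repressor that acts within the erythroid and platelet lineages, was 3.24-fold lower with a motif 133 bases before its start. Serpina3g, a protease inhibitor of early progenitors, read 12.8 in WT and 11.9 in JAK2V617F with a motif 33 bases before its start. Cish, Socs3, Bcl6 and Serpina3g were thus less than 2-fold apart on these arrays. The window of Pim3 held no such letters, which says only that they are not in those 300 bases; Socs2, Osm and Id1 are not among the windows searched.

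Among the kinases and STAT factors themselves, 2 of 11 were higher and 0 lower, median 0.42. Tyk2 was at least 6.63-fold higher, from a WT signal at the floor. Stat3 read 3.03 in WT and 5.33 in JAK2V617F, Stat5b 2.06 in WT and 2.92 in JAK2V617F and Stat5a 0.662 in WT and 0.924 in JAK2V617F, all higher by less than 2-fold, while Jak1 read 6.30 in WT and 3.48 in JAK2V617F, 1.81-fold lower. With TET2 knocked down, Stat5a (1.79 in TET2KD and 0.998 in Double mutant) was lower in Double mutant, so its direction did not recur there. Other kinases and STAT factors, less than 2-fold apart and given with the WT signal first, were Jak3 (2.17 and 2.04), Stat2 (2.67 and 1.59), Stat4 (1.72 and 1.94) and Stat6 (1.56 and 2.09).

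Receptors for hematopoietic cytokines lay on both sides, with Kit and Flt3 among the lower ones. The list had 7 of 30 compared members higher by 2-fold or more and 7 lower (median log2 difference -0.32), against 7 of 31 higher and 4 lower, median 0.19 in the second pair. Kit, the stem cell factor receptor, was 2.39-fold lower and 2.73-fold lower in the second pair. Flt3, the receptor of lymphoid and dendritic precursors, was 4.16-fold lower, and Il3ra, the interleukin 3 receptor chain, 5.47-fold lower. Of the shared beta chain genes, Csf2rb read 2.54 in WT and 5.58 in JAK2V617F and was 2.19-fold higher, and Csf2rb2 was 2.65-fold higher. Il1r1, an interleukin 1 receptor, was 4.01-fold higher and Il1rl1, the interleukin 33 receptor, at least 6.43-fold higher. The erythropoietin receptor gene Epor was near the floor (0.124 and 0.187), the G-CSF receptor gene Csf3r read 312 in WT and 294 in JAK2V617F, and the gene of the common gamma chain, Il2rg, read 36.3 in WT and 45.5 in JAK2V617F. Other members by direction were Il18r1 (3.25-fold), Il10ra (at least 2.49-fold) and Lifr (at least 2.21-fold) on the higher side and Ifngr2 (2.59-fold), Il10rb (at least 2.84-fold) and Ghr (2.18-fold) on the lower side. With TET2 knocked down, Ifngr2 and Il10rb ran the other way and were 4.30-fold and at least 5.10-fold higher.

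Genes that report and restrain RAS-MAPK signalling were more often lower than higher in both pairs of arrays. The list of RAS-MAPK and PI3K feedback genes had 3 of 30 compared members higher by 2-fold or more and 10 lower (median log2 difference -0.55). In the second pair it had 3 of 30 higher and 10 lower, median -0.53. Of 28 members compared in both pairs, 3 were lower in both and 1 higher in both. Most lower members of 1 pair were thus not lower by 2-fold in the other. Dusp6, the phosphatase that inactivates ERK and is itself induced by ERK, read 29.6 in WT and 10.69 in JAK2V617F (chr10:98729985-98730044, mm9) and was 2.77-fold lower. On the other background it read 21.1 in TET2KD and 6.59 in Double mutant, 3.21-fold lower. Spry1, a Sprouty inhibitor of receptor tyrosine kinases, was 4.35-fold lower in the first pair and 3.05-fold in the second. The nuclear phosphatase gene Dusp4 was 2.75-fold and at least 4.17-fold lower, and Etv5, an ETS factor downstream of ERK, 2.17-fold and 1.97-fold. Spred2, a RAS inhibitor, read 3.48 in WT and 0.443 in JAK2V617F and was 7.87-fold lower, but 0.415 in TET2KD and 0.714 in Double mutant in the second pair, so it did not recur. Dusp5, an ERK phosphatase, was 2.47-fold lower, and Dusp1, a stress-induced phosphatase, read 159 in WT and 77.2 in JAK2V617F. The PI3K inhibitor gene Pik3ip1 was 3.87-fold lower. Members on the higher side were Rasa1, a RAS GTPase activator (at least 4.18-fold), Ddit4, an mTOR inhibitor (3.22-fold), and Spred1 (2.56-fold). Foxo3, a factor restrained by AKT, read 26.0 in WT and 13.7 in JAK2V617F and was lower by less than 2-fold.

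The list of primary granule genes was more often higher than lower in JAK2V617F. It holds proteases and enzymes that promyelocytes and granulocyte-monocyte progenitors make first. Other members, among them Hp, Ms4a3, Serpinb1a, Igfbp4 and Plac8, are not primary granule proteases or enzymes. Of the whole list, 10 of 19 compared members were higher by 2-fold or more and 1 lower (median log2 difference 1.06), against 15.5% of all genes higher. Ctsg (cathepsin G, chr14:56718795-56718854, mm9) read 6.14 in WT and 60.2 in JAK2V617F and was 9.80-fold higher. Mpo (myeloperoxidase) read 14.7 in WT and 51.1 in JAK2V617F, 3.48-fold higher, and Prtn3 (proteinase 3) 2.16 in WT and 12.6 in JAK2V617F, 5.82-fold higher. Elane (neutrophil elastase) was 4.80-fold, Hp (haptoglobin) 8.59-fold, Ms4a3 2.81-fold, Plac8 2.28-fold, Serpinb1a (an elastase inhibitor) 2.08-fold, Igfbp4 2.74-fold and Prss57 at least 4.81-fold higher. Clec12a was the single member at least 2-fold lower (at least 2.49-fold). Nkg7 (10.5 and 10.6), Gstm1 (6.28 and 6.28), Srgn (30.6 and 28.2), Lyz2 (0.651 and 0.797) and Calr (20.1 and 29.1) were less than 2-fold apart, as were Cst7 (1.94 and 1.71), Lyz1 (1.81 and 1.47) and Ctsc (0.575 and 0.389). The second pair had 6 of 18 higher and 0 lower, median 0.86, with Ctsg 3.30-fold, Mpo 1.99-fold, Hp 4.20-fold and Prtn3 2.35-fold higher and Elane at 10.2 in TET2KD and 9.22 in Double mutant.

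Transcription factors of the myeloid branch included 7 higher genes and 0 lower ones among 30 compared, median 0.37, against 5 of 32 higher and 6 lower, median 0.06 in the second pair. Cebpa, which commits progenitors to the granulocyte-monocyte fate, read 2.15 in WT and 14.1 in JAK2V617F and was 6.55-fold higher. Irf8, the factor of monocyte and dendritic precursors, was 3.77-fold higher, Cebpd 5.48-fold, Nfil3 4.26-fold, Id1 5.66-fold and Bach1 at least 6.53-fold higher. Egr2, a zinc finger factor of macrophages, was at least 28.99-fold higher. Spi1 (PU.1, 6.14 in WT and 8.87 in JAK2V617F), Gfi1 (2.40 and 1.88), Cebpb (5.04 and 5.54), Runx1 (0.838 and 1.12) and Myb (13.3 and 8.85) were less than 2-fold apart. Only Irf8 and Id1 of these 7 were at least 2-fold higher in the second pair too (4.30-fold and 2.33-fold); Nfil3 was 2.04-fold lower there, and Cebpa read 4.72 in TET2KD and 5.66 in Double mutant. Monocyte, macrophage and Fc receptor genes had 7 of 39 compared members higher by 2-fold or more and 4 lower (median log2 difference 0.01), whose sign turned in 3 of 8 alternatives. The same list had 17 of 35 higher and 6 lower, median 0.87 in Double mutant against TET2KD. F13a1, the coagulation factor XIII subunit made by monocytes, was at least 23.4-fold higher as the mean of 2 probes that lie 104615 bases apart, and 7.98-fold higher in the second pair. Igsf6 was 5.43-fold higher and Ccr2, the monocyte chemokine receptor, at least 3.94-fold higher. The class II genes Cd74 (20.0 and 8.96) and H2-Aa (7.54 and 3.29) were 2.23-fold and 2.29-fold lower, Apoe was 4.20-fold lower (5.58-fold in the second pair) and Tlr4 at least 3.33-fold lower. Cd14, Cx3cr1 and Fcgr2b were higher (at least 2.82-fold, at least 2.72-fold and at least 2.66-fold) from WT signals at the floor.

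Granule genes of eosinophils were lower in JAK2V617F. They belong to a mixed list of mast cell, basophil and eosinophil genes, in which 3 of 22 compared members were higher by 2-fold or more and 11 lower (median log2 difference -1.02), against 15.7% of all genes lower. Its median ran from -0.50 without the filter on dim probes to -1.88 with only probes well above background on both arrays. Prg2, the major basic protein of eosinophils, read 169 in WT and 22.6 in JAK2V617F (chr2:84822799-84822858, mm9), 7.46-fold lower. Epx (eosinophil peroxidase) read 25.4 in WT and 1.41 in JAK2V617F, 18.0-fold lower. The eosinophil-associated ribonucleases followed: Ear1 read 49.7 in WT and 2.80 in JAK2V617F, Ear2 18.8 in WT and 0.827 in JAK2V617F, Ear10 29.98 in WT and 1.58 in JAK2V617F and Ear6 7.80 in WT and 0.793 in JAK2V617F. These ribonucleases are close copies of each other on chromosome 14, so their probes may share signal and are not separate evidence. Prg3, a homolog of Prg2, was 4.73-fold lower, the mast cell carboxypeptidase gene Cpa3 at least 7.71-fold lower, the lipoxygenase gene Alox15 at least 7.75-fold lower and the basophil protease gene Prss34 3.68-fold lower. Some mast cell and basophil genes ran the other way: Gzmb (granzyme B) was at least 10.2-fold higher, Il1rl1 at least 6.43-fold and the basophil protease gene Mcpt8 at least 2.62-fold higher, all from WT signals at the floor. Il5ra, the interleukin 5 receptor of eosinophil precursors, read 0.878 in WT and 0.999 in JAK2V617F. The other members were Gata2 (6.16 and 9.42), Tpsb2 (1.03 and 1.42), Hdc (0.433 and 0.306), Siglecf (1.35 and 0.789), Fcer1a (0.124 and 0.168) and Itga2 (0.124 and 0.127). The other pair had 2 of 20 higher and 10 lower, median -0.84. There Prg2 read 143 in TET2KD and 49.0 in Double mutant. Epx read 22 in TET2KD and 3.003 in Double mutant, Prg3 9.78 in TET2KD and 3.47 in Double mutant and Ear1 21.1 in TET2KD and 7.71 in Double mutant.

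**Figure D3:**
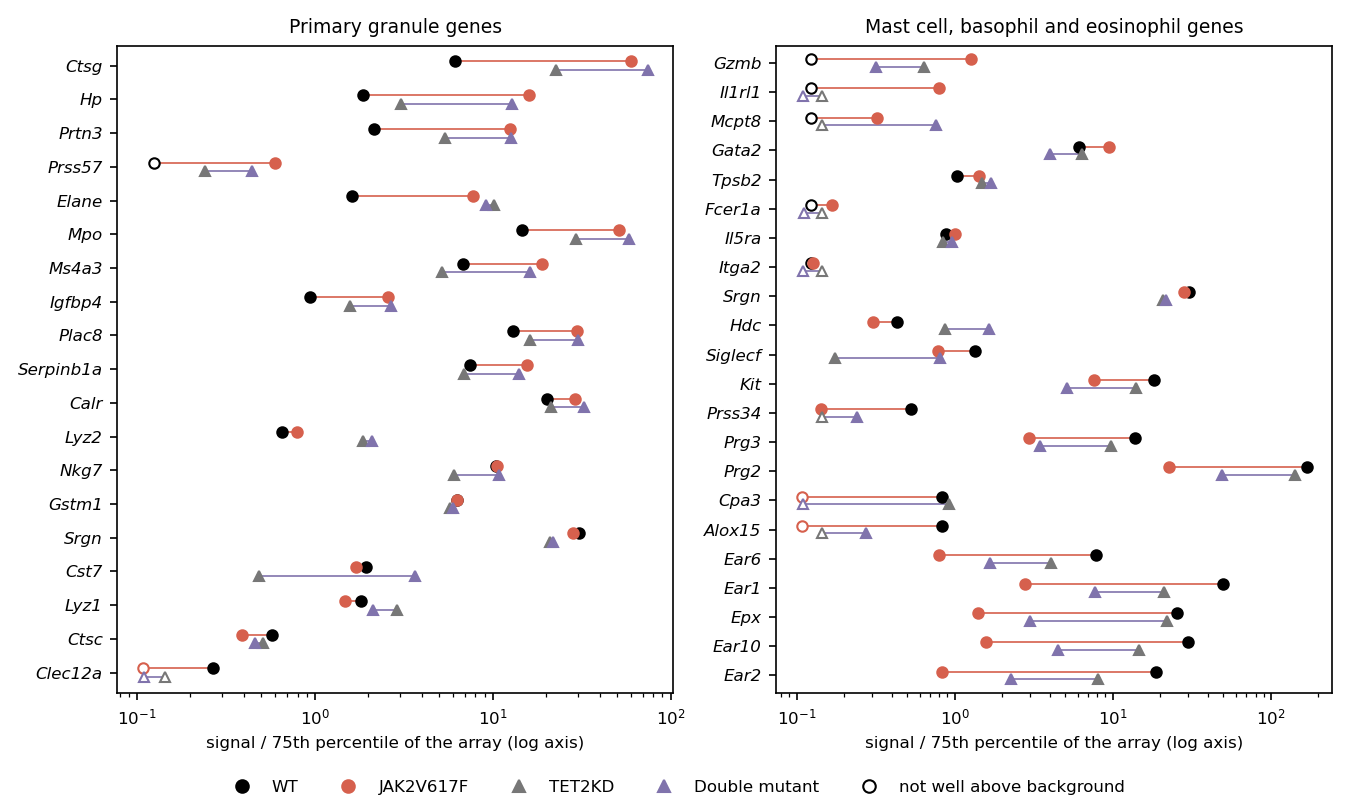
Signals of primary granule genes (left) and of mast cell, basophil and eosinophil genes (right) on the 4 arrays, relative to each array's 75th percentile on a log axis, ordered by the difference of JAK2V617F and WT; symbols are as in the plot of the brakes on JAK2. The JAK2V617F circle of Ctsg, Mpo and Prtn3 is right of WT and that of Prg2, Epx and the Ear genes is left, and the triangles of the second pair run the same way for these genes.

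Genes of later neutrophil granules did not follow the primary granule genes. The list had 5 of 27 compared members higher by 2-fold or more and 9 lower (median log2 difference -0.58). The calprotectin genes S100a8 (6.89 and 3.92) and S100a9 (38.5 and 12.6) were 1.76-fold and 3.05-fold lower, Lcn2 was 8.98-fold lower, Retnlg at least 5.49-fold, Mmp8 (collagenase) at least 4.63-fold, Ltf (lactoferrin) at least 3.18-fold, Cxcr2 (a chemokine receptor) at least 3.12-fold, Ncf4 2.98-fold, Wfdc21 2.55-fold and Il1r2 2.14-fold. The JAK2V617F signals of Retnlg, Mmp8, Ltf and Cxcr2 stood at the floor. Cybb, the oxidase subunit, was the main exception at 0.124 in WT and 3.08 in JAK2V617F, at least 24.8-fold higher and 3.64-fold higher in the second pair. Pglyrp1 was 3.81-fold, Cd177 at least 2.83-fold, Arg2 at least 2.87-fold and Ly6g 2.10-fold higher. Camp (0.846 and 1.01), Ngp (2.40 and 1.498), Chil3 (0.816 and 0.547) and Anxa1 (2.38 and 1.66) were less than 2-fold apart. The second pair had 5 of 28 higher and 1 lower, median -0.21; of the lower genes above, only Ltf was at least 2-fold lower there too.

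Stem cell genes were lower more often than higher. Of the list, 6 of 52 compared members were higher by 2-fold or more and 18 lower (median log2 difference -0.32). In the second pair 3 of 52 were higher and 18 lower, median -0.71. Of 50 members compared in both pairs, 8 were lower in both and 1 higher in both. Hlf, a transcription factor of stem cells, read 19.8 in WT and 7.03 in JAK2V617F and was 2.82-fold lower and 2.26-fold lower in the second pair. Meis1, the cofactor of HOX proteins, was 2.03-fold and 4.78-fold lower, and Angpt1, a ligand of the TIE2 receptor, 3.65-fold and 4.87-fold. Txnip, a thioredoxin inhibitor of resting stem cells, read 7.56 in WT and 1.24 in JAK2V617F over 2 probes and was 6.12-fold and 7.33-fold lower. Procr (EPCR) was 2.04-fold lower, Robo4 3.47-fold, Tal1 2.58-fold, Bmi1 2.18-fold, Mycn 2.03-fold, Tek (TIE2) at least 2.74-fold, Prdm16 at least 4.41-fold, Trpc6 at least 11.2-fold and Tie1 at least 49.8-fold. On the higher side were Ifitm1, an interferon-induced membrane protein (15.2 and 58.9, 3.87-fold, and 3.78-fold in the second pair), Nupr1 (5.74-fold), Ly6a, Hmga2 (2.07-fold) and Cavin2 (2.05-fold). Of the HOX genes and cofactors, 3 of 20 were higher and 3 lower, median 0.04, with a sign that turned in 2 of 8 alternatives. Hoxa9 read 3.91 in WT and 2.88 in JAK2V617F and Hoxa7 2.58 in WT and 1.96 in JAK2V617F, both less than 2-fold apart, Hoxa6 was 8.003-fold lower and Hoxa3 8.24-fold higher, and the Hoxb members were near the floor (Hoxb4 0.145 in WT and 0.258 in JAK2V617F). Other HOX genes and cofactors, less than 2-fold apart and given with the WT signal first, were Hoxa5 (0.859 and 0.829), Hoxa13 (0.936 and 0.582), Hoxb2 (0.124 and 0.184), Hoxb3 (0.312 and 0.332), Hoxb5 (0.128 and 0.205), Hoxb9 (0.132 and 0.191), Meis3 (1.37 and 1.34), Pbx3 (0.269 and 0.270), Pbx4 (0.667 and 0.945) and Pknox1 (6.81 and 9). Further HOX genes and cofactors that were at least 2-fold higher read Hoxa4 (0.124 and 0.321) and Hoxa10 (0.160 and 0.809). Further HOX genes and cofactors that were at least 2-fold lower read Pbx2 (0.845 and 0.374). Imprinted growth genes had 1 of 13 higher and 2 lower, median -0.49, with Sgce 5.88-fold lower and Grb10 at least 3.67-fold lower. Other imprinted genes, less than 2-fold apart and given with the WT signal first, were H19 (0.326 and 0.232), Igf2r (1.55 and 0.868), Dlk1 (0.148 and 0.190), Mirg (0.340 and 0.327), Mest (0.293 and 0.424), Ndn (0.875 and 0.885), Cdkn1c (0.124 and 0.189), Phlda2 (0.233 and 0.121), Nnat (0.2801 and 0.1741) and Gnas (2.83 and 1.59). Niche adhesion and homing genes had 6 of 33 higher and 5 lower, median 0.19. Itgal, the LFA-1 integrin chain, was 8.66-fold higher on probes 96 bases apart. Its partner Itgb2 read 5.68 in WT and 16.1 in JAK2V617F (2.83-fold), and its ligand gene Icam1 was at least 6.10-fold higher. Itgal read 4.96 in TET2KD and 4.59 in Double mutant, and Itgb2 12.9 in TET2KD and 6.38 in Double mutant. S1pr3, a sphingosine phosphate receptor, was at least 17.2-fold higher and 4.32-fold in the second pair, and Itga5 at least 2.28-fold higher, whereas Cxcr4 read 22.8 in WT and 28.0 in JAK2V617F and Itga4 1.75 in WT and 1.62 in JAK2V617F.

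Among megakaryocyte and platelet genes the directions were mixed, with 8 of 34 compared members higher by 2-fold or more and 6 lower (median log2 difference 0.09). Pf4 (platelet factor 4) read 1.55 in WT and 7.04 in JAK2V617F, 4.54-fold higher, Selp (P-selectin) was 4.99-fold, the thrombin receptors F2rl3 and F2r at least 10.3-fold and 3.39-fold and Alox12 at least 3.39-fold higher. Gng11 was 33.9-fold, Mmrn1 (multimerin) 3.72-fold, Angpt1 3.65-fold, Dok2 2.98-fold and F2rl2 2.57-fold lower. The second pair had 4 of 34 higher and 16 lower, median -0.83: Pf4 read 5.04 in TET2KD and 1.599 in Double mutant and was lower there, while Mmrn1 was at least 8.30-fold lower. Itga2b, the gene of CD41, read 0.323 in WT and 0.584 in JAK2V617F and Gp9 0.194 in WT and 0.210 in JAK2V617F. Erythroid and megakaryocyte transcription factors had 2 of 27 compared members higher by 2-fold or more and 5 lower (median log2 difference -0.07), which turned in 1 of 8 alternatives. Gata1, the erythroid master factor, read 4.54 in WT and 1.93 in JAK2V617F, 2.35-fold lower, but 0.176 in TET2KD and 1.70 in Double mutant in the second pair. Tal1 (2.58-fold), Gfi1b (3.24-fold), Cbfa2t3 (2.59-fold) and Bcl11a (3.39-fold) were lower, Mafg (5.07-fold) and Nfe2l2 (2.31-fold) higher, and Klf1 was near the floor (0.124 and 0.155). Fli1 (2.68 and 1.495), Nfe2 (7.81 and 7.09), Lmo2 (21.1 and 20.1) and Zfpm1 (1.16 and 0.662) were less than 2-fold apart. Other erythroid and megakaryocyte factors, less than 2-fold apart and given with the WT signal first, were Ldb1 (3.37 and 6.46), Zbtb7a (1.05 and 1.02), Mafk (0.485 and 0.608), E2f2 (1.43 and 1.58), E2f4 (0.432 and 0.517), Etv6 (4.75 and 6.12), Mrtfa (1.01 and 0.535) and Tead1 (1.15 and 0.968). Of globin, heme and red cell membrane genes 7 of 34 compared members were higher by 2-fold or more and 6 lower (median log2 difference 0.04), which turned in 2 of 8. Car2 (carbonic anhydrase) read 14.8 in WT and 4.78 in JAK2V617F, 3.09-fold lower, Slc25a37 (mitoferrin) was 3.14-fold and Hba-a1 (alpha globin) 4.77-fold lower, while Urod was 4.88-fold, Slc25a38 5.30-fold, Alad 3.01-fold, all heme synthesis genes, and Tfrc (transferrin receptor) 2.50-fold higher.

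Genes of lymphoid priming, the low lymphoid program of multipotent progenitors, were more often lower than higher in JAK2V617F, which the second pair did not show. Here 4 of 29 compared members were higher by 2-fold or more and 7 lower (median log2 difference -0.48). These shares were 13.8% and 24.1%, against 15.5% and 15.7% of all genes. The other pair had 9 of 33 higher and 5 lower, median 0.14. Over the alternative processings the median of the first pair ran from -0.52 to -0.13. Dntt, the terminal transferase of lymphoid progenitors, read 105 in WT and 38.2 in JAK2V617F, 2.74-fold lower; in the second pair it read 62.2 in TET2KD and 71.0 in Double mutant. Satb1, a chromatin organiser, was 2.35-fold lower, Cd52 2.64-fold, Bcl11a 3.39-fold, Rag2 (the recombinase subunit) at least 12.5-fold, Cnn3 2.02-fold and Flt3 4.16-fold. Satb1 was 3.30-fold higher in the second pair. On the higher side were Socs2, Irf8, Pax5 (4.06-fold) and Id3 (2.45-fold). Cd27, Mef2c (5.91 and 4.23), Ikzf1 (3.85 and 2.65), Tcf3 (2.40 and 2.84), Ikzf2 (3.34 and 3.89), Runx2 (1.15 and 0.953) and Notch1 (0.494 and 0.776) were less than 2-fold apart. B cell and plasma cell genes had 2 of 21 higher and 5 lower, median -0.20, with Vpreb1, a pre-B surrogate light chain, 15.7-fold lower, Pou2af1 3.92-fold lower, Cd79b 2.45-fold lower and Jchain 2.22-fold lower. T and NK cell genes had 4 of 23 higher and 2 lower, median 0.07 (turned in 1 of 8 alternatives), with Il2rb at least 7.65-fold higher and Cd28 4.39-fold higher.

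Mitotic genes were more often higher than lower in both pairs of arrays. Mitosis and kinetochore genes had 21 of 70 compared members higher by 2-fold or more and 4 lower (median log2 difference 0.54). In the second pair 32 of 70 were higher and 5 lower, median 0.74. Of 69 members compared in both pairs, 11 were higher in both and 0 lower in both. Ccna2 (cyclin A) read 1.81 in WT and 4.84 in JAK2V617F, 2.67-fold higher, Sgo1 (shugoshin) 1.11 in WT and 6.52 in JAK2V617F, 5.86-fold higher, and Pttg1 (securin) 0.918 in WT and 3.78 in JAK2V617F, 4.12-fold higher. The kinesins Kif2c, Kif4, Kif15 and Kif11 were at least 8.67-fold, 7.83-fold, 7.61-fold and 2.35-fold higher, and in the second pair at least 8.62-fold, at least 2.75-fold, 2.76-fold and 2.89-fold. Bub1, a checkpoint kinase, was 2.25-fold and 4.77-fold higher, Top2a (topoisomerase II) 2.31-fold and 2.18-fold, and Cdc25c, the activator of CDK1, at least 6.10-fold and at least 5.998-fold. Foxm1, the mitotic transcription factor, was the lowest at 2.96-fold, with Kif23 2.47-fold, Smc2 2.27-fold and Ncapd2 2.05-fold; none of these was lower in the second pair. Replication fork genes had 11 of 59 compared members higher by 2-fold or more and 5 lower (median log2 difference 0.25), a share of 18.6% higher that lies near the 15.5% of all genes, and 13 of 59 higher and 3 lower, median 0.29 in the second pair. Rrm2, the ribonucleotide reductase subunit, read 4.97 in WT and 13.9 in JAK2V617F, 2.79-fold higher, Tk1 (thymidine kinase) was 2.81-fold, Fen1 2.32-fold, Mcm10 3.33-fold, Orc1 2.49-fold and Chaf1a at least 5.18-fold higher, and Cdc6 2.91-fold, Pola1 2.53-fold, Chaf1b 2.31-fold and Orc6 2.12-fold lower. Of G1 cyclins, kinases and E2F factors, 3 of 25 were higher and 2 lower, median 0.37, shares no larger than those of all genes: Skp2 was 5.65-fold higher, Ccnd1 2.05-fold lower and Mycn 2.03-fold lower. The members Cks1b (27.4 and 43.0), Tfdp1 (12.1 and 18.9), Cdk4 (8.43 and 12.1) and Cdk6 (0.856 and 1.29) were higher by less than 2-fold, and Ccnd3 (6.71 and 4.13) and E2f3 (1.93 and 1.23) lower. Other G1 genes, less than 2-fold apart and given with the WT signal first, were Cdk2 (1.70 and 1.23), E2f1 (2.31 and 3.28), E2f2 (1.43 and 1.58), E2f4 (0.432 and 0.517), E2f5 (0.197 and 0.108), E2f6 (1.12 and 0.921), E2f7 (0.645 and 0.9997), E2f8 (2.02 and 2.21), Tfdp2 (0.539 and 0.694), Cks2 (3.43 and 5.45), Max (3.92 and 6.28) and Mxd3 (0.249 and 0.293). Further G1 genes that were at least 2-fold higher read Mxd1 (0.891 and 2.53). CDK inhibitors and RB proteins had 4 of 13 higher and 1 lower, median 0.61, with Cdkn1a (p21) 5.08-fold and the DREAM subunits Lin54, Lin9 and Lin37 5.17-fold, 4.93-fold and 4.06-fold higher, Rbl2 (p130) 3.14-fold lower, and Cdkn1b (p27) at 1.78 in WT and 0.994 in JAK2V617F. Other inhibitors and RB proteins, less than 2-fold apart and given with the WT signal first, were Cdkn1c (0.124 and 0.189), Cdkn2c (2.54 and 2.16), Cdkn2d (9.94 and 18.9), Cdkn3 (1.69 and 1.16), Rb1 (0.128 and 0.237), Rbl1 (0.969 and 1.35) and Lin52 (0.521 and 0.339).

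Nucleolar genes of ribosome assembly were more often higher than lower in both pairs. Nucleolar ribosome biogenesis genes had 15 of 58 compared members higher by 2-fold or more and 2 lower (median log2 difference 0.43). The second pair had 19 of 58 higher and 1 lower, median 0.55. Of the 58 members, 9 were higher in both pairs and 1 lower in both. Rrs1 (3.06 and 9.02), Emg1 (3.20 and 8.35), Nhp2 (3.28 and 6.90) and Noc2l (2.82 and 6.75), all of them assembly factors of the ribosome, were 2.95-fold, 2.61-fold, 2.10-fold and 2.40-fold higher. Ddx56 was 7.93-fold, Polr1b, a subunit of RNA polymerase I, at least 6.002-fold, Nop16 at least 5.78-fold and Utp20 3.14-fold higher. Ubtf, the RNA polymerase I factor, read 46.4 in WT and 14.7 in JAK2V617F, 3.15-fold lower, and was 2.74-fold lower in the second pair. Translation factors and tRNA synthetases had 8 of 56 higher and 0 lower, median 0.26, which is 14.3% higher, under the 15.5% of all genes; the second pair had 10 of 56 higher and 2 lower, median 0.42. Eif5a read 26.5 in WT and 54.0 in JAK2V617F, Gars 15.1 in WT and 31.3 in JAK2V617F and Eif3g 6.41 in WT and 15.8 in JAK2V617F, and Eef1e1 was 5.21-fold higher. Respiratory chain genes had 8 of 77 compared members higher by 2-fold or more and 0 lower (median log2 difference 0.23), also under that share at 10.4%, and 16 of 77 higher and 0 lower, median 0.63 in the other pair. Ndufb8 (9.27 and 31.1), Ndufa5 (3.89 and 11.0), Ndufb6 (4.82 and 13.2) and Ndufs4 (6.12 and 13.1) of complex I led, with Cyc1 of complex III (2.63-fold) and Atp5d of ATP synthase (2.36-fold). The ribosomal proteins themselves had 0 of 75 higher and 0 lower, median -0.14, so no member reached 2-fold in either direction.

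Heat shock and unfolded protein response genes, which serve protein folding in the cytosol and the endoplasmic reticulum, were more often higher than lower in the first pair. The list had 12 of 48 compared members higher by 2-fold or more and 5 lower (median log2 difference 0.53), and 4 of 46 higher and 6 lower, median 0.19 in the second pair. Sdf2l1, a chaperone cofactor, read 13.5 in WT and 49.5 in JAK2V617F, 3.68-fold higher, P4hb (protein disulfide isomerase) 4.68 in WT and 10.1 in JAK2V617F, 2.15-fold higher, and Hsph1 2.12 in WT and 7.05 in JAK2V617F, 3.32-fold higher. Hyou1 was 12.02-fold, Dnajc3 9.01-fold, Creld2 2.89-fold, Pdia6 3.42-fold, Ddit3 (CHOP) 2.60-fold and Herpud1 2.37-fold higher. Hsf2 was 10.1-fold, Eif2ak3 (PERK) at least 4.82-fold, Dnajb9 3.99-fold and Sel1l 3.38-fold lower. Cholesterol and fatty acid synthesis genes had 8 of 37 higher and 4 lower, median 0.33. Fdps was 4.87-fold, Dgat1 36.2-fold, Acaca 5.621-fold and Cyp51 at least 6.14-fold higher, while Msmo1 was 6.44-fold, Nsdhl 2.81-fold and Fdft1 2.28-fold lower. Glycolysis and hypoxia genes had 8 of 42 higher and 9 lower, median -0.06. Vegfa was 8.32-fold and Pfkl 4.90-fold higher. The bright enzyme genes Pgam1 (54.0 and 112) and Pgk1 (11.3 and 24.6) were 2.08-fold and 2.18-fold higher, and Ldhb was 5.72-fold, Pdk2 4.24-fold and Hif1a 2.18-fold lower. Antioxidant genes had 3 of 27 higher and 3 lower, median 0.15. Nqo1 was 7.18-fold and Srxn1 5.25-fold lower, Glrx 2.71-fold and Nfe2l2 2.31-fold higher. Sod1 (96.6 and 95.3), Gpx1 (386 and 497), Txn1 (52.2 and 65.5) and Prdx5 (10.3 and 17.0) were less than 2-fold apart.

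Inflammatory cytokines and chemokines lay on both sides, with 10 of 24 compared members higher by 2-fold or more and 6 lower (median log2 difference 0.16); this median turned negative in 2 of 8 alternative processings. Osm, Tnf (at least 14.6-fold), Cxcl1 (at least 6.77-fold), Cxcl2 (0.390 and 2.71, 6.95-fold), Cxcl10 (4.82-fold), Il10 (at least 4.96-fold), Ptgs2 (at least 3.05-fold) and Tgfb1 (2.73-fold) were higher. Il18 (at least 4.20-fold), Ccl6 (3.22-fold), Il1b (2.94-fold), Il12a (at least 2.73-fold), Ccl3 (5.34 and 2.49) and Ccl4 (4.86 and 2.34) were lower. Between TET2KD and Double mutant, Cxcl1 was at least 6.26-fold and Cxcl10 4.56-fold higher, Tnf read 1.87 in TET2KD and 2.87 in Double mutant and Il10 was 3.02-fold lower. Ccl5 (1.38 and 1.26), Ccl9 (5.90 and 6.76), Ccl2 (0.852 and 0.596), Lif (0.268 and 0.402) and Cxcl16 (0.169 and 0.135) were less than 2-fold apart. NF-kB genes had 7 of 27 higher and 5 lower, median -0.04. Rela, the p65 subunit, read 4.01 in WT and 10.67 in JAK2V617F, 2.66-fold higher, Birc3 was 6.84-fold, Bcl3 5.90-fold, Traf2 5.04-fold and Nfkbie 2.29-fold higher, while Ikbke was 14.2-fold, Relb 8.25-fold, Traf6 3.74-fold, Tnip3 3.28-fold and Map3k14 2.84-fold lower. The inhibitor genes Nfkbia (17.1 and 13.7) and Tnfaip3 (4.59 and 7.58) and the subunits Nfkb1 (1.23 and 1.52), Nfkb2 (2.97 and 1.91) and Rel (0.527 and 0.501) were less than 2-fold apart. Other NF-kB genes, less than 2-fold apart and given with the WT signal first, were Nfkbib (1.35 and 2.51), Nfkbid (11.1 and 15.3), Nfkbiz (2.41 and 3.90), Tnip1 (2.09 and 1.45), Tnip2 (0.822 and 0.629), Birc2 (1.195 and 0.623), Traf1 (0.2503 and 0.471), Traf3 (4.24 and 2.48), Ikbkb (0.674 and 0.533) and Ikbkg (0.392 and 0.382). Further NF-kB genes that were at least 2-fold higher read Chuk (2.36 and 4.93). Early genes had 7 of 32 higher and 3 lower, median 0.21, but 2 of 32 were higher and 10 lower, median -0.62 in the second pair. The bright AP-1 and EGR members were lower or less than 2-fold apart, with Jund (325 and 114), Fos (83.8 and 50.3), Fosb (578 and 428), Jun (62.6 and 39.2) and Egr1 (309 and 204). By contrast Egr2 (at least 28.99-fold), Egr4 (at least 27.4-fold) and Nr4a3 (at least 24.7-fold) were higher from WT signals at the floor. Ier3 was 3.74-fold higher, Egr3 2.93-fold higher and Csrnp1 2.57-fold higher. In the second pair Egr4 was 3.99-fold lower, Egr3 15.7-fold and Nr4a3 3.96-fold higher. Interferon response genes had 8 of 46 higher and 9 lower, median -0.04. Tap1, the peptide transporter, was 13.1-fold higher and Gbp3 4.34-fold higher, while Rsad2 was 8.04-fold lower, Oas3 6.02-fold lower and Gbp2 3.75-fold lower. Of 45 interferon members compared in both pairs, 4 were higher in both and 4 lower in both. Cxcl10 is among the former. Oas3, Rsad2 and Gbp2, among the latter, were 7.71-fold, 2.62-fold and 4.24-fold lower in the second pair.

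Genes of the p53 response had 8 of 34 compared members higher by 2-fold or more and 6 lower (median log2 difference 0.55). This median ran from 0.26 to 0.58 over the alternative processings. Pmaip1 (NOXA) read 0.260 in WT and 5.89 in JAK2V617F, 22.6-fold higher, and was 5.07-fold higher in the second pair. Gadd45a was 3.93-fold, Perp at least 8.37-fold, Zmat3 at least 2.84-fold and Bbc3 (PUMA) 2.02-fold higher, and Trp53 read 9.21 in WT and 13.8 in JAK2V617F. Polk (17.9-fold), Xpc (4.75-fold), Tnfrsf10b (5.28-fold), Ccng2 (2.89-fold) and Plk2 (2.35-fold) were lower; of these Polk, Xpc, Ccng2 and Plk2 were 3.29-fold, 3.51-fold, 2.36-fold and 7.44-fold lower in the second pair too. Mdm2 (3.11 and 3.33), Bax (4.00 and 7.86), Btg2 (2.23 and 3.35), Aen (13.8 and 12.7) and Ddb2 (8.32 and 6.49) were less than 2-fold apart. Apoptosis genes had 9 of 37 higher and 4 lower, median 0.31, with Naip2 at least 7.69-fold higher and Diablo 3.19-fold higher, Bcl2a1d at least 17.3-fold lower and Xiap 2.20-fold lower. DNA repair genes had 19 of 71 higher and 14 lower, median 0.06, a median whose sign turned in 2 of 8 alternative processings. Apex1, the base excision endonuclease, read 7.12 in WT and 29.8 in JAK2V617F, 4.19-fold higher, and 2.40-fold in the second pair; Parp1 was 2.47-fold higher, Chek2 at least 21.6-fold higher and Xrcc5 6.80-fold higher, while Xrcc6 was 2.15-fold lower, Prkdc 4.26-fold lower, Fancf 10.2-fold lower and Poli 4.41-fold lower.

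Of the genes that set cytosine methylation, 6 of 22 compared members were higher by 2-fold or more and 3 lower (median log2 difference 0.20). Dnmt1, the maintenance methyltransferase, read 0.951 in WT and 2.08 in JAK2V617F, 2.19-fold higher and 3.04-fold in the second pair, and Dnmt3a was 3.98-fold higher. Tet1 was 3.65-fold lower over 3 probes (log2 differences from -3.11 to 0.08), Tet3 read 0.673 in WT and 0.977 in JAK2V617F and Dnmt3b 4.98 in WT and 4.15 in JAK2V617F. Mbd4 (at least 5.78-fold), Idh1 (at least 6.01-fold) and Mbd3 (2.98-fold) were higher and Apobec1 (3.82-fold) lower, while Uhrf1 (26.7 and 31.6), Idh2 (22.6 and 22.8) and Mbd2 (7.43 and 9.63) were less than 2-fold apart. Other methylation genes, less than 2-fold apart and given with the WT signal first, were Dnmt3l (0.124 and 0.157), Uhrf2 (2.66 and 2.59), Mbd1 (0.633 and 0.542), Tdg (1.88 and 2.03), Apobec3 (2.88 and 4.78), Cxxc4 (0.134 and 0.150) and Cxxc5 (0.386 and 0.263). Polycomb and histone methylation genes had 7 of 44 higher and 9 lower, median -0.23, against 8 of 45 higher and 3 lower, median 0.29 in the second pair. Pcgf1 was 7.06-fold, Jarid2 4.96-fold, Asxl1 3.12-fold and Eed 2.04-fold higher, and Kmt2c 7.18-fold, Pcgf3 at least 5.95-fold, Rnf2 3.65-fold, Kdm1a 2.30-fold and Bmi1 2.18-fold lower. HDAC, acetyltransferase and SWI/SNF genes had 8 of 49 higher and 7 lower, median 0.16. Smarcc1 read 3.44 in WT and 12.2 in JAK2V617F as a mean over 4 probes whose log2 differences ran from -0.37 to 3.42, and Smarcc2, its paralog, 6.01 in WT and 1.21 in JAK2V617F, 4.96-fold lower. Hdac9 (at least 17.2-fold), Sirt2 (4.92-fold) and Smarca2 (4.70-fold) were lower and Kat5 (3.68-fold), Hdac8 (3.85-fold) and Kat2a (2.37-fold) higher. TGF-beta, BMP, Notch and Wnt genes had 10 of 43 higher and 7 lower, median 0.12: Lfng, a modifier of NOTCH receptors, was at least 35.8-fold, Dll1 at least 9.28-fold and Axin1 3.34-fold higher, and Smad3 4.97-fold and Notch4 2.45-fold lower.

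Markers of cells that the LSK gate should not hold were read in the same way. Endothelial and stromal genes had 3 of 24 higher and 5 lower, median -0.03 (turned in 2 of 8 alternatives), with a summed signal of 38.4 in WT and 26.8 in JAK2V617F; Bgn was at least 16.8-fold lower, Egfl7 4.30-fold lower, Pdgfrb 7.01-fold higher and Bglap at least 8.30-fold higher. Summed signals were 29.3 and 24.0 for B cell and plasma cell genes, 36.4 and 45.1 for T and NK cell genes, and 127 and 124 for globin, heme and red cell genes. Fetal liver and hepatocyte genes had 1 of 8 higher and 2 lower, median -0.12 (turned in 2 of 8), with 12 of 20 listed genes not compared, and Afp read 0.161 in WT and 0.140 in JAK2V617F. Other genes of the fetal liver list, less than 2-fold apart and given with the WT signal first, were Apoa2 (0.727 and 0.990), Serpina1a (0.170 and 0.164), Trf (1.90 and 2.77) and Sox17 (0.186 and 0.108). Further genes of the fetal liver list that were at least 2-fold lower read Apoc3 (0.672 and 0.153). Genes of the X inactivation center and the Y chromosome had 1 of 5 higher and 2 lower, median -0.59. Xist, transcribed from the inactive X, read 13.2 in WT and 3.95 in JAK2V617F and was 3.35-fold lower. The Y-linked genes read were Eif2s3y (0.619 and 0.132), Ddx3y (0.124 and 0.264), Uty (0.267 and 0.177) and Sry (0.472 and 0.550). The part of these genes' difference in the other results was not tested. Whether the cells on the 2 arrays differed in their mix of male and female donors was not tested either.

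Genes with at least 2 compared probes, all of which differed at least 2-fold, were also read probe by probe. These genes were chosen by these values, which are a description. F13a1, Socs2, Acp5, Robo3 and F2rl3 had no probe well above background in WT. Gsta3, Tox, Slc9a7 and Ccdc171 had none in JAK2V617F. The filter kept such probes only through the array where they are high, so their common direction is no second reading. Probes not well above background on either array were left out, so that Socs2 was read by 3 of its 4 probes, Slc9a7 by 2 of 4, and Itgal and Ccdc171 by 2 of 3. The 12 higher genes ranked by their smallest probe difference were F13a1 (at least 23.4-fold), Socs2 (at least 18.2-fold), Acp5 (at least 10.9-fold), Akr1b10 (14.4-fold), Itgal (8.66-fold), Lysmd1 (11.0-fold), Robo3 (at least 9.50-fold), Pdcd2l (7.94-fold), Vegfa (8.32-fold), Uxt (7.16-fold), Nrg2 (7.20-fold) and F2rl3 (at least 10.3-fold). Vegfa, the endothelial growth factor, read 0.577 in WT and 4.80 in JAK2V617F, and its probes were 7989 bases apart. Uxt, a prefoldin-like chaperone, read 4.07 in WT and 29.1 in JAK2V617F, 7.16-fold higher, and 5.34-fold higher in the second pair, on probes 21 bases apart. Acp5 (tartrate-resistant acid phosphatase) was at least 10.9-fold, and Akr1b10, an aldo-keto reductase, 14.4-fold. On the lower side the genes were Lrrc75a (27.4-fold), Gsta3 (at least 25.4-fold), Bex1 (15.8-fold), Cfap410 (15.1-fold), Mapk1ip1 (18.0-fold), Zfp7 (19.1-fold), Sac3d1 (11.1-fold), Tox (at least 9.70-fold), Slc9a7 (at least 10.3-fold), Ccdc171 (at least 7.89-fold), Trim47 (7.46-fold) and Camta2 (6.15-fold). Lrrc75a read 11.5 in WT and 0.420 in JAK2V617F on probes 5 bases apart, Gsta3, a glutathione transferase, 2.73 in WT and 0.108 in JAK2V617F, and Bex1 3.41 in WT and 0.216 in JAK2V617F; Bex1 was 11.1-fold lower in the second pair. Tox, a factor of lymphoid development, was at least 9.70-fold lower and 6.51-fold lower, and Camta2 read 6.67 in WT and 1.08 in JAK2V617F. For 9 of the 24 genes the probes lay within 100 bases of each other and for 8 they spanned at least 500 bases, so the former read nearly the same stretch of the transcript.

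**Figure D4:**
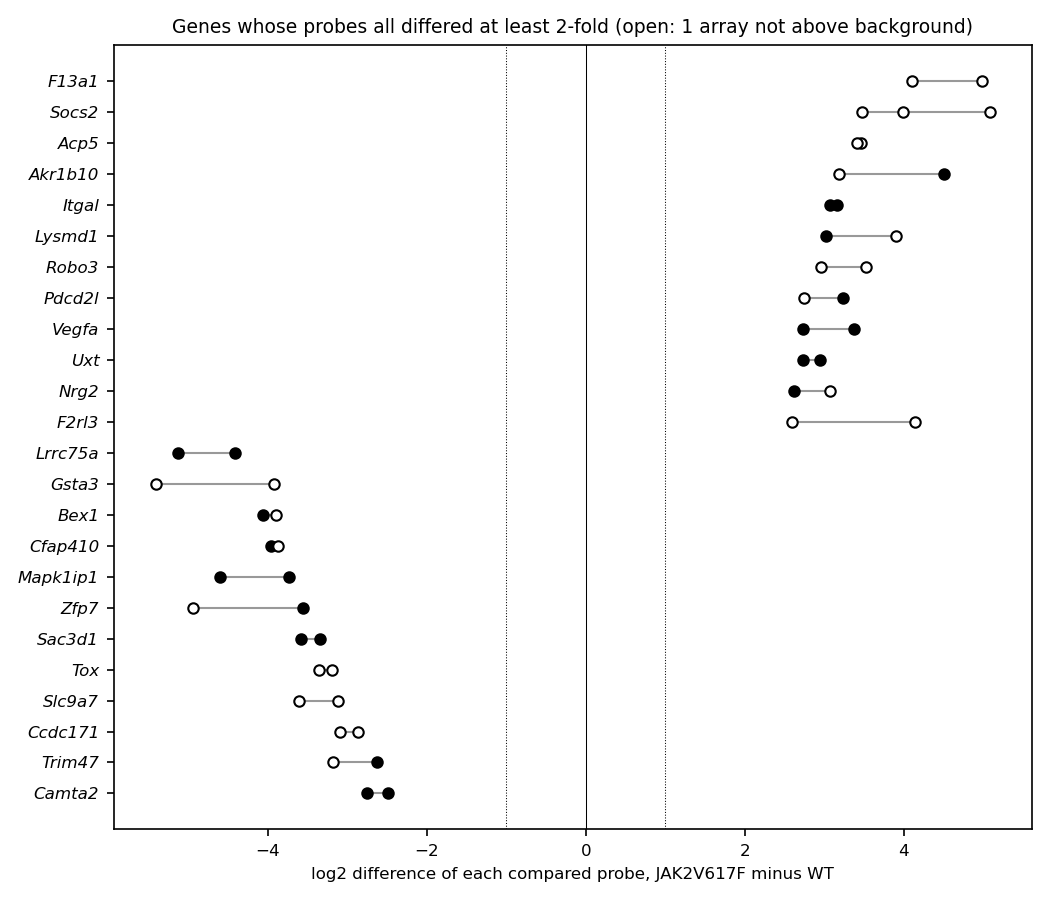
Each point is a compared probe, placed at its log2 difference between JAK2V617F and WT, for the 12 genes each way whose compared probes all differed at least 2-fold; open points were not well above background on 1 of the arrays and dotted lines mark 2-fold. The genes were chosen by these values, so the plot shows how far the probes of a gene lie apart and is no test.

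Genes well above background on all 4 arrays were also ranked by the smaller of their differences in the 2 pairs, which is a description of genes chosen by these values. The 12 on the higher side, with the fold of the first pair, were Ufsp1 (46.0-fold), Got1 (21.4-fold), Sppl2a (16.1-fold), Zfp783 (6.502-fold), Cep85 (7.79-fold), Uxt (7.16-fold), Eef1e1 (5.21-fold), Slc38a10 (5.18-fold), Pmaip1 (22.6-fold), Ippk (8.23-fold), Rhbdf2 (4.96-fold) and Slc48a1 (4.93-fold). Ufsp1, a protease of the UFM1 modifier, read 0.169 in WT and 7.74 in JAK2V617F, and 0.551 in TET2KD and 5.79 in Double mutant in the second pair. Got1, the cytosolic aspartate aminotransferase, read 0.314 in WT and 6.73 in JAK2V617F and 0.275 in TET2KD and 2.52 in Double mutant, and Sppl2a, an intramembrane protease, 0.188 in WT and 3.03 in JAK2V617F and 0.382 in TET2KD and 3.18 in Double mutant. The 12 lowest were Ypel2 (11.5-fold), Epx (18.0-fold), Eya2 (6.44-fold), Mylpf (6.16-fold), Txnip (6.12-fold), Oas3 (6.02-fold), Ubxn2b (6.02-fold), Khdrbs3 (5.69-fold), Irf5 (5.67-fold), Slc2a12 (5.49-fold), Adcy6 (6.21-fold) and Rbm34 (4.94-fold). Epx and Txnip, described above, are among them. Eya2, a developmental phosphatase, read 11.9 in WT and 1.85 in JAK2V617F and 11.4 in TET2KD and 0.818 in Double mutant, and Irf5, an interferon regulatory factor, 1.85 in WT and 0.326 in JAK2V617F and 10.3 in TET2KD and 0.498 in Double mutant. Adcy6 read 1.27 in WT and 0.204 in JAK2V617F and 1.01 in TET2KD and 0.193 in Double mutant, and Khdrbs3 1.12 in WT and 0.198 in JAK2V617F and 2.71 in TET2KD and 0.203 in Double mutant. Since weeks after transplantation were 16 and 16 in the first pair and 10 and 13 in the second, time and the JAK2V617F lesion cannot be told apart in the second.

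**Figure D5:**
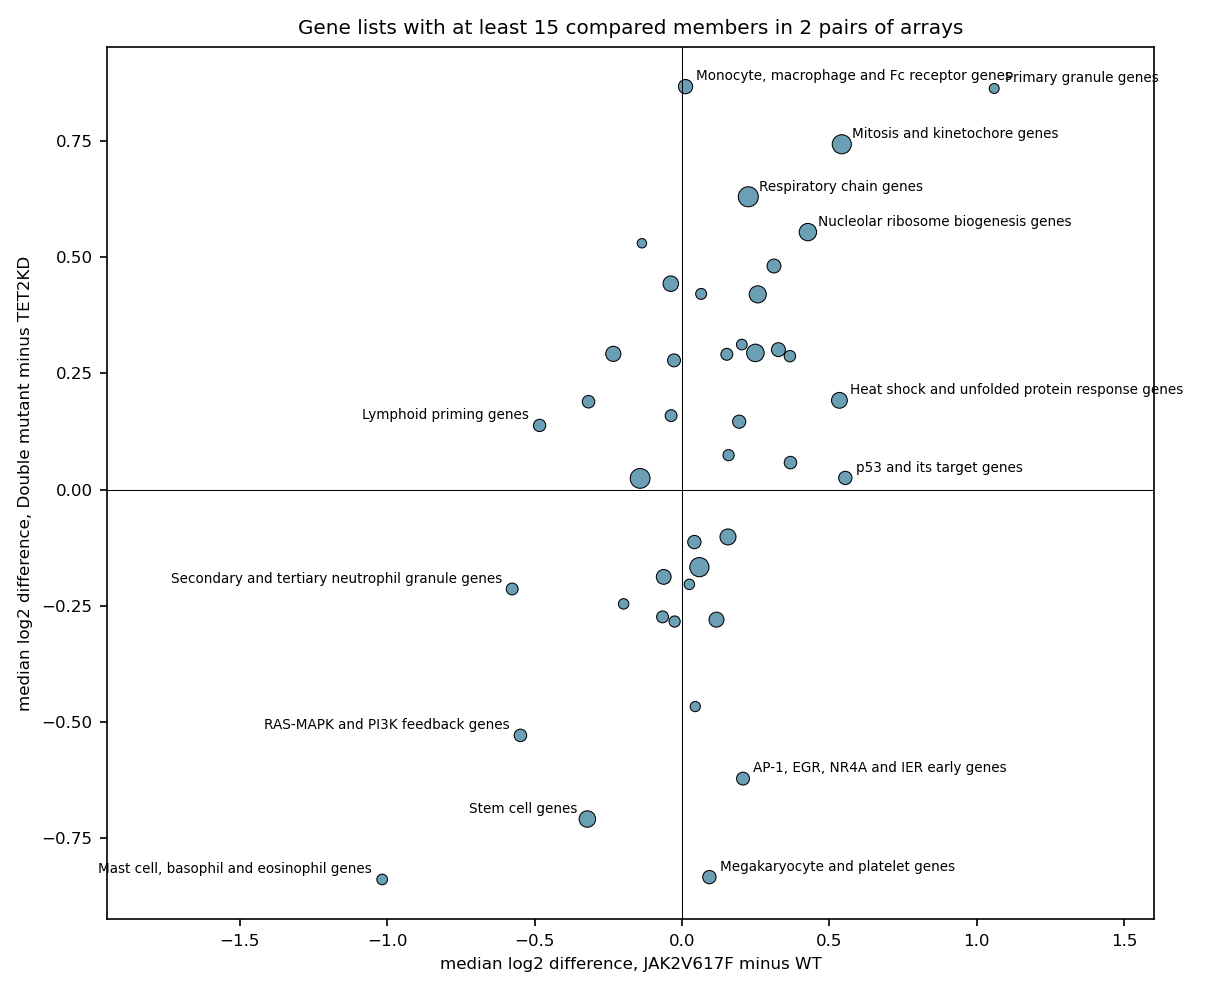
Median log2 difference of each gene list with at least 15 compared members in JAK2V617F minus WT (horizontal) and in Double mutant minus TET2KD (vertical), which share no array; point area grows with the number of compared members. Primary granule (1.06 and 0.86) and mitosis genes (0.54 and 0.74) lie in the upper right, and mast cell, basophil and eosinophil genes (-1.02 and -0.84), RAS-MAPK feedback genes (-0.55 and -0.53) and stem cell genes (-0.32 and -0.71) in the lower left. Lists off this diagonal include AP-1, EGR, NR4A and IER early genes (0.21 and -0.62), megakaryocyte and platelet genes (0.09 and -0.83), monocyte genes (0.01 and 0.87) and lymphoid priming genes (-0.48 and 0.14).

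The 2 medians had the same sign in 30 of 48 lists and opposite signs in 18. Kinases and STAT factors, given above for the first pair, had 0 of 11 higher and 3 lower, median -0.38 in the second. Interferon response genes had 8 of 46 higher and 10 lower, median 0.44, and NF-kB genes had 2 of 27 higher and 3 lower, median 0.16. Of the surface genes of the LSK gate and SLAM subsets, 4 of 22 were higher and 3 lower, median -0.20, and of the HOX genes and cofactors, 2 of 16 were higher and 4 lower, median -0.47. Globin, heme and red cell membrane genes had 6 of 36 higher and 10 lower, median -0.11. DNA repair genes had 13 of 71 higher and 12 lower, median -0.17, chromatin genes of the HDAC, acetyltransferase and SWI/SNF list had 4 of 50 higher and 8 lower, median -0.10, and TGF-beta, BMP, Notch and Wnt genes had 6 of 45 higher and 15 lower, median -0.28. These second-pair medians lie on the other side of 0 from those of the first pair.

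Several genes were at least 2-fold higher as the mean of probes that disagreed in sign, or lost that direction on another choice of probes: Vwf (3.02-fold; probe log2 differences from -0.42 to 3.61), Cd44 (2.10-fold; -0.60 to 2.80), Fgfr1 (2.83-fold; -0.30 to 3.30), Plagl1 (3.19-fold; -0.04 to 3.75), Ccne1 (2.46-fold; -0.25 to 2.85), Cflar (2.12-fold; -0.91 to 3.01) and Smarcc1 (3.56-fold; -0.37 to 3.42). Their direction is not settled here. Some folds average a probe at the floor with a measured one and so rest in part on the floor. In the first pair these are Akr1b10, Bcl2l1, Bex1, Ccne1, Cdc6, Cdkn1a, Cfap410, Cflar, Chaf1b, Flt3, Hdac8, Hmga2, Il18r1, Lin9, Lysmd1, Mbd3, Nrg2, Pdcd2l, Pdia6, Plagl1, Relb, Tfrc, Traf2, Traf6, Trim47, Vwf and Zfp7, and in the second Bex1, F13a1, Polk and Socs2. With normexp background correction the differences of Alad, Alox12, Apoc3, Arg2, Bbc3, Bcl2l1, Bmi1, Cavin2, Ccl3, Ccl4, Ccnd1, Ccne1, Ccng2, Ccr2, Cd14, Cd177, Cd44, Cd79b, Cd8b1, Cdc6, Cflar, Chaf1a, Chaf1b, Chuk, Clec12a, Cnn3, Csf2rb, Csf2rb2, Cx3cr1, Cxcr2, Ddx3y, Dnmt1, Dnmt3a, Dusp4, Dusp5, Eed, Eif2ak3, Eif2s3y, Etv5, Fcgr2b, Fdft1, Fgfr1, Gfi1b, Ghr, Grb10, Hif1a, Hmga2, Hoxa10, Hoxa4, Id3, Il10, Il10ra, Il10rb, Il12a, Il18, Il18r1, Il1b, Il1r2, Itga5, Jchain, Kat2a, Kat5, Kdm1a, Kif11, Lifr, Ltf, Ly6g, Mbd3, Mbd4, Mcm10, Mcpt8, Meis1, Mmp8, Mmrn1, Mycn, Ncapd2, Ncf4, Nfe2l2, Nfkbie, Nhp2, Notch4, Nsdhl, Oas2, Orc1, Orc6, Parp1, Pbx2, Pcgf3, Plagl1, Plk2, Prdm16, Procr, Prss34, Prss57, Ptgs2, Rasa1, Rbl2, Rbm34, Retnlg, Rnf2, Socs5, Spred1, Tal1, Tek, Tfrc, Tlr4, Tnfrsf10b, Top2a, Traf6, Tyk2, Ubtf, Vwf, Wfdc21, Xiap, Xrcc6 and Zmat3 came under 2-fold.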

How the data were processed

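LSK RNA was extracted with Trizol, amplified with NuGEN Ovation Pico WTA and labelled with Cy3 by Agilent's enzymatic method for genomic DNA, per the labels' protocols, and hybridised to 4 one-colour Agilent arrays. Per the file headers, the authors' deposited files are Feature Extraction 10.7.3.1 output, and the processed signal is an intensity after background subtraction; probe coordinates are mm9. The authors' deposited series matrix holds log2 values, which equal the log2 processed signal up to a constant shift per array on all 55249 single-spot probes (tolerance 0.001 log2 units); its column medians are -2.638 (WT), -2.604 (JAK2V617F), -2.632 (TET2KD) and -2.596 (Double mutant).

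Control spots were left out, repeated spots averaged and log2 intensities centred on each array's 75th percentile (Python 3.11.15, pandas 2.3.3, numpy 2.4.6). Between 49.4% and 54.7% of the spots that are not controls were well above background. Probes were named by accession (28355), symbol (3191) or synonym (270) through the RefSeq table of GRCm38.p6, and 23865 stayed unnamed. A gene is the mean of its compared probes. A probe not well above background takes the higher of its own signal and the lowest signal that is well above background. The alternatives were normexp, quantile and cyclic loess (R 4.3.3, limma 3.58.1), other scalings, filters, thresholds and the brightest probe. The steps were run on simulated data, made from the WT array with planted differences and only the spread of repeated spots as noise. Such data check the computation and cannot show the error from mice, sorting or amplification.

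The genes named were the brakes on JAK2, the 12 genes each way by agreement of probes and by agreement of pairs, members of short lists, and of longer lists those with the largest differences and the best known; some of the latter were chosen after their values were seen. The members and lists were chosen with earlier results of these data known. Some list members are not reported here by name.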

Additional observations from a re-analysis of the deposited data

Results flagged for a closer look

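Among the genes named above, 44 were at least 2-fold apart in JAK2V617F against WT and at least 2-fold apart the other way in Double mutant against TET2KD. With 1 array per genotype the difference between the pairs was not tested, and the pairs also differ in weeks after transplantation. Over all genes compared in both pairs, 5.13% were apart in opposite directions. The value after each gene is the log2 difference in the first pair minus that in the second. Genes higher in JAK2V617F than in WT and lower in Double mutant than in TET2KD were Cd14 (3.19), Cd28 (4.99), Cflar (3.03), Ddit4 (4.05), Egr4 (6.78), Fcgr2b (3.30), Gzmb (4.35), Hdac8 (4.78), Herpud1 (2.54), Hoxa3 (4.30), Il10 (3.91), Itgb2 (2.52), Lfng (6.25), Lin37 (3.61), Lysmd1 (7.05), Nfil3 (3.12), Pax5 (3.51), Perp (7.16), Pf4 (3.84), Skp2 (3.92), Urod (3.80), Vwf (4.02) and Xrcc5 (4.29). Among them are the cytokine gene Il10, the platelet genes Pf4 and Vwf, and the integrin chain Itgb2. Genes lower in JAK2V617F and higher in Double mutant were Apobec1 (-3.22), Bcl2a1d (-5.14), Chaf1b (-2.58), Cnn3 (-3.01), Fdft1 (-3.93), Foxm1 (-2.73), Gata1 (-4.50), Hsf2 (-4.37), Ifngr2 (-3.48), Il10rb (-3.86), Il1b (-2.69), Lrrc75a (-6.67), Mmp8 (-3.59), Ncapd2 (-2.48), Nsdhl (-2.82), Prkdc (-3.47), Sac3d1 (-5.19), Satb1 (-2.96), Socs7 (-2.29), Tnfrsf10b (-4.34) and Xiap (-2.67). They include the erythroid factor Gata1, the lymphoid chromatin organiser Satb1 and the mitotic factor Foxm1. For Bcl2a1d, Cd14, Cflar, Chaf1b, Cnn3, Egr4, Fcgr2b, Fdft1, Gzmb, Hdac8, Hoxa3, Il10, Il10rb, Il1b, Lfng, Lin37, Lysmd1, Mmp8, Nsdhl, Pax5, Perp, Sac3d1, Tnfrsf10b, Vwf and Xrcc5 at least 1 of the 2 differences rests on a signal at the detection floor.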

How the results depend on the processing

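No paired analysis was possible because each genotype has 1 array. For the same reason no array could be left out. The counts of genes at least 2-fold higher and lower moved little with quantile scaling, cyclic loess, scaling to the median of detected probes, the brightest probe per gene or the series matrix values. With normexp background correction they were 903 and 922, and 143 genes were higher in both pairs, 139 lower in both and 131 in opposite directions; 52 genes had all probes higher, 49 all lower and 66 probes in opposite directions. With only probes well above background on both arrays, 1439 genes were higher; 287 were higher in both pairs, 310 lower in both and 366 opposite, and 98, 112 and 152 genes had probes all higher, all lower or opposite. Without the filter on dim probes, 845 genes were higher in both pairs, 813 lower in both and 1179 opposite. At a 3-fold threshold 1161 genes were higher and 1175 lower, with 159 and 181 in both pairs and 191 opposite. Some of the 48 list medians moved by more than the SD of a difference between repeated spots. They were 9 with the brightest probe, 7 with probes above background on both arrays, 6 with normexp and 4 without the filter. The median ran from -0.69 to -0.04 for imprinted growth genes and from 0.20 to 0.89 for CDK inhibitors and RB proteins. The stricter settings held fewer probes or genes, and the constant added with normexp shrinks the folds of dim genes. How far each accounts for these moves was not tested. With only probes well above background on both arrays the log2 difference was -0.25 for Ccne1, -0.11 for Cflar, -0.008 for Plagl1 and -0.42 for Vwf, and with the brightest probe it was -0.60 for Cd44, -0.30 for Fgfr1, -0.04 for Plagl1 and -0.37 for Smarcc1, against positive values in the report. Depth in counts does not apply; the signal over background limits dim genes.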
